A study of Mus musculus with 4 samples.

Results

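Irf1, Gbp2, Gbp3, Gbp5, Irgm1, Igtp, Iigp1, Ifi47, Cxcl9 and Cxcl10 are genes that interferon gamma is known to induce, and their RNA was followed here across the cells of the mouse heart. They were chosen by name, and all 10 were found once each among the 32285 genes of the count matrices. Each of 4 groups was represented by 1 droplet single-cell library of heart cells: cecal ligation and puncture (CLP, a bowel puncture that causes sepsis) with low-level tragus stimulation, CLP alone, a sham and a control. Tragus stimulation acts through the skin of the ear on vagus nerve fibres. For the first group the labels name the sepsis in the title and the stimulation in the treatment field, and it is called CLP plus stimulation below. The labels, protocols and files used here do not state strain, sex, age, how many hearts went into a library, what the sham involved or when after surgery the hearts were taken.

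Interferon gamma is a cytokine released mainly by T cells and natural killer cells. It binds a receptor made of Ifngr1 and Ifngr2 and acts through the kinases Jak1 and Jak2, and its signal reaches gamma activated sites (GAS) in DNA. Irf1 is an early target and is itself a transcription factor that binds interferon stimulated response elements (ISRE). Gbp2, Gbp3 and Gbp5 are guanylate binding proteins, and Irgm1, Igtp (Irgm3), Iigp1 (Irga6) and Ifi47 (Irgd) are immunity related GTPases. Both families act on membranes around intracellular pathogens. Cxcl9 and Cxcl10 are chemokines that draw cells carrying the receptor Cxcr3. Many of these genes also respond to type I interferon, and Cxcl10 and Irf1 further respond to NF-kappa B, so their level is no measure of interferon gamma alone.

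The promoters of 4 members are shown as examples of different combinations of these sites. Whether the sites bear on the differences between cell classes was not tested. The sequences are the 250 bases upstream of the RefSeq start on GRCm38.p6, read 5′ to 3′ on the gene's strand, from Irf1 (chr11:53769764-53770013, plus strand), Igtp (chr11:58199306-58199555, plus strand), Cxcl9 (chr5:92328080-92328329, minus strand) and Cxcl10 (chr5:92348890-92349139, minus strand). Capitals mark a match on either strand to the ISRE letters (GAAA, any 2 bases, GAAA), the GAS letters (TTC, any 3 bases, GAA) or the kappa B letters (GGGA, any 2 bases, TTCC).
Irf1: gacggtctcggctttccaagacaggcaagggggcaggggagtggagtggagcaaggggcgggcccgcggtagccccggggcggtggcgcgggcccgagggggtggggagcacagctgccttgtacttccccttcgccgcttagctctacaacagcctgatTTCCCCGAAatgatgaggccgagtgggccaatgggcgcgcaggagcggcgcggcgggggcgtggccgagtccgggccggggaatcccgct
Igtp: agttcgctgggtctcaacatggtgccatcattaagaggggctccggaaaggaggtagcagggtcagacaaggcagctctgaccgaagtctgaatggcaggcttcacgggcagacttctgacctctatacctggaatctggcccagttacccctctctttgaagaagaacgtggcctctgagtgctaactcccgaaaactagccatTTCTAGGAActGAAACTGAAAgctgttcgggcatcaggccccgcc
Cxcl9: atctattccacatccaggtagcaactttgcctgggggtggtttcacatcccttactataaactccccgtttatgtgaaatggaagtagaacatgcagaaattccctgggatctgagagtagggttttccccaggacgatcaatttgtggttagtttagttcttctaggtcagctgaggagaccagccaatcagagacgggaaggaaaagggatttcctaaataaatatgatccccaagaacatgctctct
Cxcl10: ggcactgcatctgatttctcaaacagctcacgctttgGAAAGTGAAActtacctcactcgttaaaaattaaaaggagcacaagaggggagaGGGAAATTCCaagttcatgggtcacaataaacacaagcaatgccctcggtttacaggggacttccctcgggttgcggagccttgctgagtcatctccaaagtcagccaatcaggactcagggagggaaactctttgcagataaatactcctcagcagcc

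The Irf1 window held 1 GAS match, TTCCCCGAA, and the Igtp window held a GAS match, TTCTAGGAA, and an ISRE match, GAAACTGAAA, that do not overlap. The Cxcl10 window held an ISRE match, GAAAGTGAAA, and a kappa B match, GGGAAATTCC, whereas no match to these letters was found in the Cxcl9 window. The promoters of 9 members were searched, and 6 of these members held an ISRE match, 3 a GAS match and 2 a kappa B match. Among all 32841 promoters of the same length, 2.98%, 7.02% and 1.21% did. Gbp3 and Irf1 had 2 promoters each, and members were counted by gene, whereas these shares are by promoter. The remaining ISRE matches were TTTCACTTTC in Gbp2, TTTCAGTTTC and the overlapping TTTCTATTTC in Gbp3, TTTCAATTTC in Gbp5, and GAAATAGAAA overlapping GAAACCGAAA in Irgm1. Gbp5 also held the GAS matches TTCTGGGAA and TTCTCAGAA and the kappa B match GGAAATTCCC. A match is a string of letters, not a measured binding site.

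By the GENCODE annotation of GRCm38, Gbp2 (chr3:142620602-142638008), Gbp3 (chr3:142560026-142573209) and Gbp5 (chr3:142493978-142522344) are neighbouring paralogs. Irgm1 (chr11:48861968-48871683), Igtp (chr11:58199556-58207591), Ifi47 (chr11:49076587-49096974) and Irf1 (chr11:53770014-53778374) are on chromosome 11, and Cxcl9 (chr5:92321347-92328079) and Cxcl10 (chr5:92346638-92348889) on chromosome 5. Iigp1 is on chromosome 18. All are protein coding. Igtp overlaps Irgm2 and Ifi47 overlaps Olfr56 on the same strand, so the split of reads between them is uncertain. The paralogs of both GTPase families are similar enough that some reads may be shared.

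The libraries held 54611436 to 59465046 unique molecular identifiers (UMIs) over 8741 to 15964 barcodes, and any pair shared at most 60 barcodes. After filtering, 8021 cells remained in CLP plus stimulation, 7720 in CLP, 8240 in sham and 13559 in control. Each cell was placed in a class by a gate on marker genes that contains no member, and class names end in "-like" because they rest on those markers alone. There were 642, 2292, 1873 and 3663 endothelial-like cells in CLP plus stimulation, CLP, sham and control, 2662, 1604, 3108 and 4074 macrophage-like cells, and 1251, 1959, 1686 and 3191 fibroblast-like cells. In CLP plus stimulation 29.7% of cells met no gate, against 12.2% in CLP, 6.64% in sham and 8.25% in control. The gate cuts a continuous score, and 14.2%, 7.79%, 1.96% and 2.65% of the macrophage-like cells lay close to the cut in the same order of libraries. The markers of other classes had a median of 0 UMIs per cell in 45 of 52 combinations of marker set and library in endothelial-like cells, 44 in macrophage-like cells and 37 in fibroblast-like cells, and the highest median was 3.

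Levels are UMIs summed over the cells of a class, divided by all UMIs of that class and scaled to counts per 1000000 (CPM), and parentheses hold exact 95% intervals that cover counting error only. With 1 library per group there is no replicate check, no test was made, and a difference between libraries cannot be told apart from one between the hearts or preparations behind them. A gene is said to be at least 2-fold higher or lower when its log2 ratio reaches 1 or -1.

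Endothelial-like cells were the class with the highest level of most members. They led in all 4 libraries for Gbp2, Gbp3, Gbp5, Igtp, Iigp1 and Cxcl9, among classes with at least 50 cells in the library. In control, the interval of the next class (glial-like, from 70 cells, or pericyte-like) overlapped theirs for Gbp2, Gbp3, Gbp5 and Igtp. The separation was widest for Cxcl9, at 290.2 CPM in endothelial-like cells of CLP plus stimulation, 371 CPM in CLP, 185 CPM in sham and 162 CPM in control. The next class was at most 51.6 CPM in any of these libraries, and fibroblast-like cells stood at 2.29, 1.19, 1.42 and 0.611 CPM in the same order.

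Cxcl10 had another order. Macrophage-like cells led in CLP (279 CPM) and sham (1035 CPM), endothelial-like cells in CLP plus stimulation (213 CPM against 159 CPM in macrophage-like cells), and glial-like cells in control (438 CPM against 282 CPM in macrophage-like cells). Irf1 was highest in T cell-like cells of CLP plus stimulation (448 CPM), in endothelial-like cells of CLP (344 CPM) and sham (215 CPM), and in glial-like cells of control (469 CPM). Irgm1 was nearly equal in endothelial-like (88.5 CPM) and fibroblast-like cells (88.1 CPM) of the sham library, and in control it was highest in 64 lymphatic endothelial-like cells (107 CPM), whose interval overlapped that of the glial-like cells. Ifi47 was highest in endothelial-like cells of both CLP libraries, overlapping T cell-like cells in CLP plus stimulation, and in sham and control the intervals of its leading classes overlapped.

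**Figure D1:**
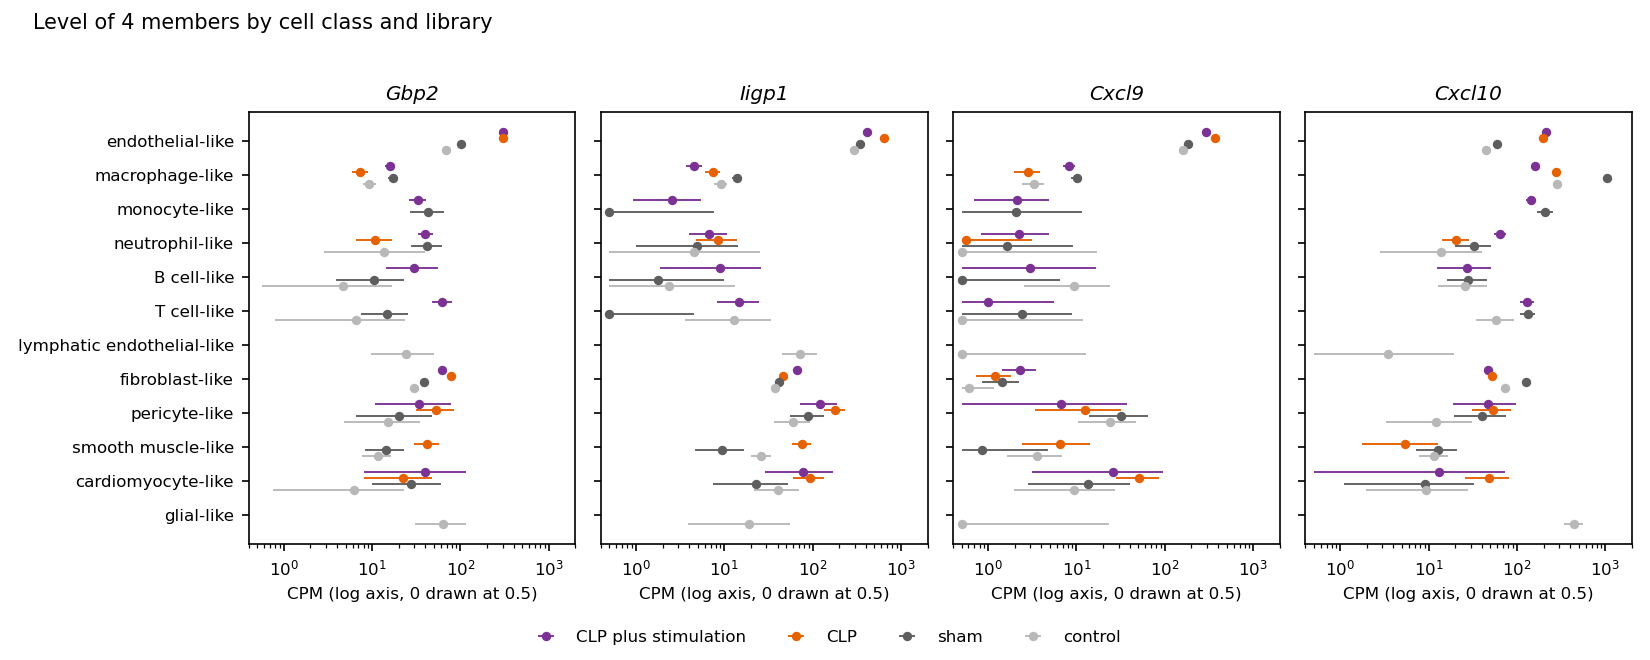
Level in CPM (log axis, a level of 0 drawn at 0.5) of Gbp2, Iigp1, Cxcl9 and Cxcl10 in each class with at least 50 cells, with CLP plus stimulation, CLP, sham and control as separate points and bars for 95% counting intervals. Endothelial-like cells stand apart for Iigp1 and Cxcl9 and lead for Gbp2, which in control overlaps glial-like cells at 63.4 CPM, whereas Cxcl10 is highest in macrophage-like cells of the sham library at 1035 CPM.

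Irf1 differed less between libraries in endothelial-like cells than in macrophage-like cells. Endothelial-like cells held 296 (277 to 317) CPM in CLP plus stimulation, 344 (334 to 354) CPM in CLP, 215 (206 to 225) CPM in sham and 272 (263 to 282) CPM in control. The log2 ratio of CLP over sham was 0.67 (0.60 to 0.75) there, and that of CLP plus stimulation over CLP was -0.21 (-0.32 to -0.11). In macrophage-like cells the levels were 76.6 (72.8 to 80.5) CPM in CLP plus stimulation, 30.7 (27.8 to 33.8) CPM in CLP, 131 (126 to 137) CPM in sham and 196 (189 to 203) CPM in control. The 4 libraries did not overlap in their intervals, and CLP was lowest, with a log2 ratio of -2.10 (-2.25 to -1.94) over sham. CLP plus stimulation exceeded CLP by 1.32 (1.16 to 1.48) on the log2 scale but stayed below both libraries without CLP. Fibroblast-like cells of the CLP libraries also lay below the others, at 96.6 and 87.4 CPM in CLP plus stimulation and CLP, against 196 CPM in sham and 176 CPM in control.

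The guanylate binding proteins were higher in endothelial-like cells of both CLP libraries than in those of sham and control. Gbp2 had 304 (284 to 324) CPM in CLP plus stimulation, 302 (293 to 311) CPM in CLP, 100.2 (94.0 to 107) CPM in sham and 69.1 (64.2 to 74.2) CPM in control, so the CLP pair overlapped and stood at about the same height. Gbp3 followed this order with smaller gaps, at 156 CPM, 164 CPM, 84.3 CPM and 61.2 CPM in the same libraries. Gbp5, which is known for promoting inflammasome assembly, was higher in CLP plus stimulation (198 CPM) than in CLP (138 CPM), and both exceeded sham (49.3 CPM) and control (33.0 CPM). The log2 ratios of CLP over sham were 1.59 (1.49 to 1.69) for Gbp2, 0.96 (0.84 to 1.07) for Gbp3 and 1.49 (1.34 to 1.64) for Gbp5. CLP plus stimulation over CLP gave 0.01 (-0.10 to 0.11), -0.07 (-0.21 to 0.08) and 0.52 (0.38 to 0.65) for these genes.

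Fibroblast-like cells held less of each guanylate binding protein but showed the same direction between CLP and sham. Gbp2 was at 62.4 CPM in CLP plus stimulation, 77.3 CPM in CLP, 38.8 CPM in sham and 29.6 CPM in control. Gbp3 was at 38.7 CPM in both CLP libraries, 20.2 CPM in sham and 13.4 CPM in control. Gbp5 was at 18.3 CPM, 13.6 CPM, 6.72 CPM and 4.21 CPM. The log2 ratios of CLP over sham lay between 0.94 and 1.01 for the 3 genes. Different clusters held these cells: clusters 3 and 4 held 81.8% and 16.0% of them in CLP, and clusters 29 and 21 held 78.4% and 16.0% in sham, so no cluster held 50 cells of both. The summed level of the 8 endothelial markers in these fibroblast-like cells was 1238 CPM in CLP plus stimulation, 506 CPM in CLP, 153 CPM in sham and 268 CPM in control, none of the 8 being at 0. Their part in the fibroblast values was not tested.

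Macrophage-like cells ran the other way between CLP and sham. Gbp2 was at 15.8 CPM in CLP plus stimulation, 7.29 CPM in CLP, 17.1 CPM in sham and 9.34 CPM in control. Gbp3 was at 8.17 CPM, 6.99 CPM, 28.3 CPM and 19.9 CPM, so both CLP libraries lay clear of the others. Gbp5 stayed between 2.66 CPM in CLP and 5.42 CPM in sham. CLP over sham was -1.22 (-1.57 to -0.90) for Gbp2, -2.01 (-2.35 to -1.70) for Gbp3 and -1.01 (-1.62 to -0.46) for Gbp5.

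**Figure D2:**
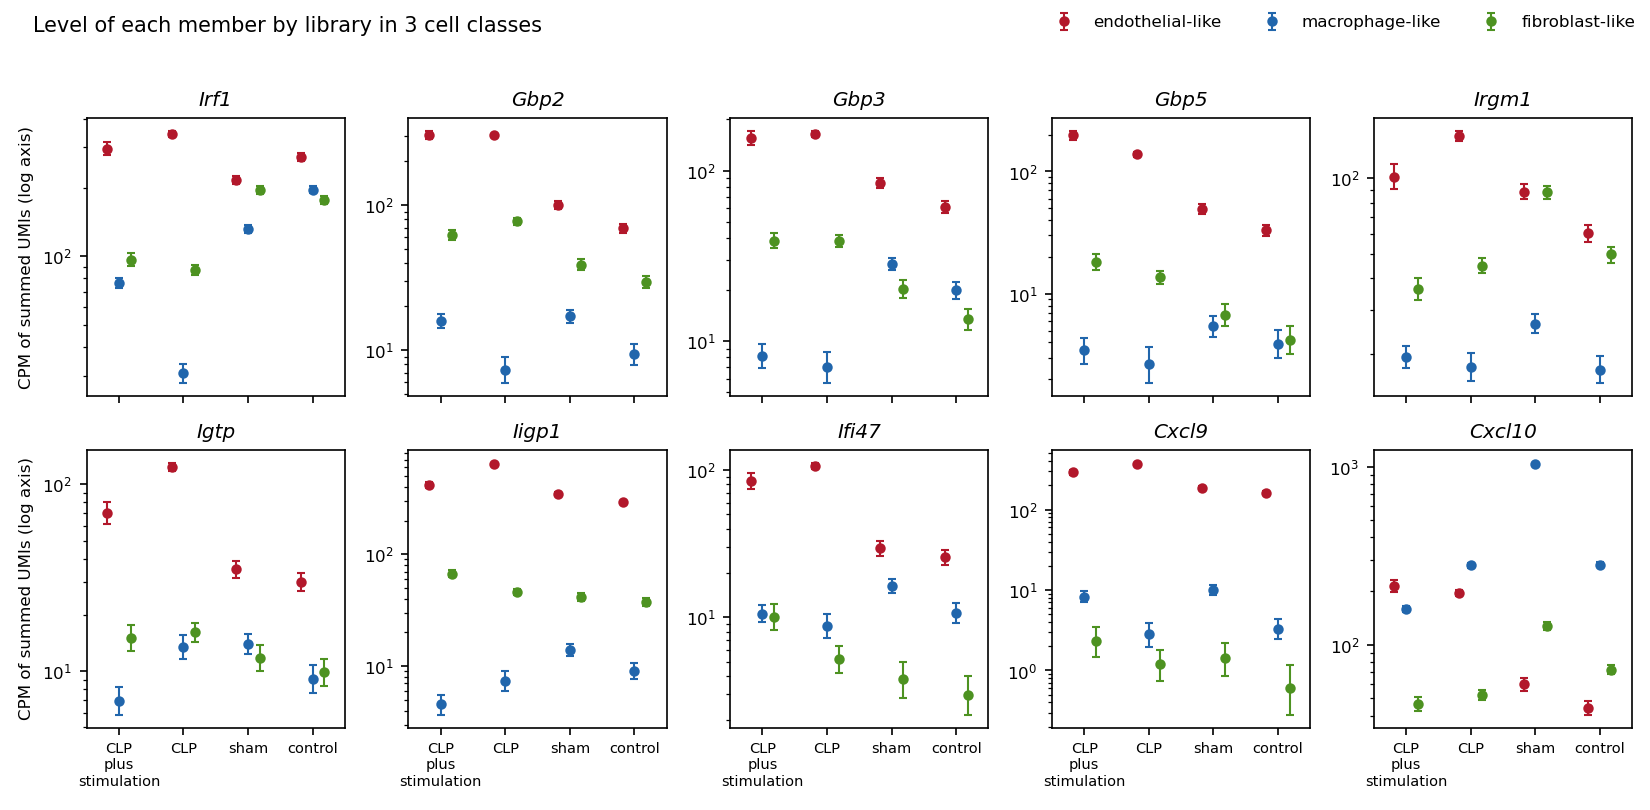
Level in CPM (log axis) of each member in CLP plus stimulation, CLP, sham and control, for endothelial-like, macrophage-like and fibroblast-like cells, with bars for 95% counting intervals over 1 library per group. In endothelial-like cells every member is higher in CLP than in sham, while Irf1 in macrophage-like cells is lowest in CLP at 30.7 CPM.

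Of the immunity related GTPases, all 4 were higher in endothelial-like cells of CLP than of sham, and all 4 were lower in CLP plus stimulation than in CLP. Igtp, an Irgm-type regulator of the family, had 70.1 (61.0 to 80.3) CPM in CLP plus stimulation, 124 (118 to 130.4) CPM in CLP, 35.1 (31.4 to 39.0) CPM in sham and 30.1 (26.9 to 33.5) CPM in control. Iigp1, an effector GTPase that coats pathogen vacuoles, had 417, 645, 346 and 292 CPM, and Ifi47 had 85.0, 107, 29.4 and 25.5 CPM in the same order of libraries. Irgm1, which is also tied to autophagy, had 102 CPM in CLP plus stimulation, 148 CPM in CLP, 88.5 CPM in sham and 60.5 CPM in control. The intervals of CLP and sham did not overlap for any of the 4. They cover counting error only, and the share of all genes without overlap was not counted.

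CLP over sham was 1.82 (1.66 to 2.00) for Igtp, 1.86 (1.67 to 2.05) for Ifi47, 0.90 (0.84 to 0.96) for Iigp1 and 0.74 (0.62 to 0.86) for Irgm1 on the log2 scale. CLP plus stimulation over CLP was -0.82 (-1.04 to -0.62) for Igtp, -0.63 (-0.72 to -0.55) for Iigp1, -0.54 (-0.72 to -0.37) for Irgm1 and -0.32 (-0.52 to -0.13) for Ifi47. Gbp2 and Gbp3 were near 0 and Gbp5 above 0 in that comparison. The difference between the GTPase families was not tested.

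In macrophage-like cells Igtp had 6.93 CPM in CLP plus stimulation, 13.5 CPM in CLP, 13.9 CPM in sham and 9.07 CPM in control. CLP and sham overlapped there, and the sign of their ratio depended on the processing (-0.51 to 0.21 over the alternatives). Iigp1 had 4.53 CPM in CLP plus stimulation, 7.37 CPM in CLP, 13.9 CPM in sham and 9.07 CPM in control there. In fibroblast-like cells Irgm1 went against the other GTPases, at 36.4 CPM in CLP plus stimulation and 45.0 CPM in CLP, against 88.1 CPM in sham and 49.8 CPM in control. Its log2 ratio of CLP over sham was -0.97 (-1.10 to -0.84), while those of Igtp, Iigp1 and Ifi47 lay between 0.14 and 0.46.

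The chemokines split by cell class. Cxcl9 in endothelial-like cells gave a log2 ratio of 1.00 (0.93 to 1.08) for CLP over sham and -0.36 (-0.46 to -0.25) for CLP plus stimulation over CLP. Cxcl10 in the same cells had 213 (197 to 230.5) CPM in CLP plus stimulation, 196 (188 to 203) CPM in CLP, 60.1 (55.3 to 65.1) CPM in sham and 44.2 (40.4 to 48.4) CPM in control. CLP exceeded sham by 1.70 (1.57 to 1.83), and the CLP libraries overlapped in their intervals. In macrophage-like cells Cxcl10 had 159 (154 to 165) CPM in CLP plus stimulation, 279 (269.8 to 288) CPM in CLP, 1035 (1021 to 1050) CPM in sham and 282 (273 to 290.4) CPM in control. CLP and control were alike in level there, and the sham library stood above all others, with a log2 ratio of 1.88 (1.83 to 1.92) over control. The log2 ratio of CLP over sham was thus -1.89 (-1.94 to -1.84), against 1.70 in endothelial-like cells.

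In sham, Cxcl10 was mostly found in macrophages: 86.1% of all Cxcl10 UMIs of the sham library were in macrophage-like cells and 2.55% in endothelial-like cells. These shares were 48.4% and 9.78% in CLP plus stimulation, 44.0% and 31.7% in CLP, and 68.9% and 7.69% in control. Of Cxcl9 UMIs, 76.1% in CLP plus stimulation, 95.6% in CLP, 85.9% in sham and 90.7% in control were in endothelial-like cells. Macrophage-like cells held 8.27, 2.81, 10.1 and 3.29 CPM of Cxcl9, from 166, 37, 193 and 50 UMIs. A single cell held 73 of the 193 Cxcl9 UMIs in sham, and with the richest cell of each library taken out the levels were 7.37, 2.36, 6.31 and 2.63 CPM. Shares of UMIs follow the number of cells of each class in a library as well as the level per cell.

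Counted over the list, 6 of 10 members were at least 2-fold higher in CLP than in sham in endothelial-like cells, where 4.61% of the 13016 genes measured were. The 6 were Ifi47, Igtp, Cxcl10, Gbp2, Gbp5 and Cxcl9, the last at the threshold. None was at least 2-fold lower, where 6.52% of all genes were. The median log2 ratio was 1.25 for the members and -0.14 for all genes. The number of members past 2-fold lay between 5 and 8 over the processing alternatives, being 8 when libraries were scaled by TMM or by the median of ratios. Neutrophil marker RNA also differed between these libraries, with the 7 markers summing to 636 CPM in endothelial-like cells of CLP plus stimulation, 429 CPM in CLP, 99.1 CPM in sham and 28.0 CPM in control. The 8 macrophage markers in endothelial-like cells summed to 155 CPM, 137 CPM, 264 CPM and 264 CPM, lower in the CLP libraries. The part of either in the result was not tested.

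In macrophage-like cells 6 of 10 members were at least 2-fold lower in CLP than in sham, where 18.3% of 12736 genes were, and none was 2-fold higher, where 5.17% were. These were Irf1, Gbp3, Cxcl10, Cxcl9, Gbp2 and Gbp5, with a list median of -1.12 against -0.24 for all genes. Beside control, CLP was lower for Irf1 (30.7 against 196 CPM) and Gbp3 (6.99 against 19.9 CPM). For Cxcl10, Cxcl9, Gbp2 and Gbp5 the CLP and control intervals overlapped. The Cxcl9 ratio over sham, -1.84, was -1.15 without the single sham cell that held 73 of its UMIs. The count was 3 when 5 CPM was added to both levels or when doublets were kept, and 7 with a stricter gate or with cells thinned to equal depth. Different clusters held most of the class in these libraries: cluster 1 in CLP, led by Cxcl13 and heat shock genes, and clusters 7 and 28 in sham, led by class II genes and by Lyve1 and Timd4. The neutrophil markers summed to 1374 CPM in CLP and 176 CPM in sham, and the B cell markers to 35.6 CPM and 289.8 CPM. Their part in the result was not tested.

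In fibroblast-like cells Gbp5 was at least 2-fold higher in CLP than in sham, where 3.61% of 13502 genes were, and Cxcl10 and Irf1 were at least 2-fold lower, where 7.75% were. The median was 0.29 for the members and -0.09 for all genes. Cxcl10 stood at 46.6 CPM in CLP plus stimulation, 52.0 CPM in CLP, 127 CPM in sham and 72.5 CPM in control.

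**Figure D3:**
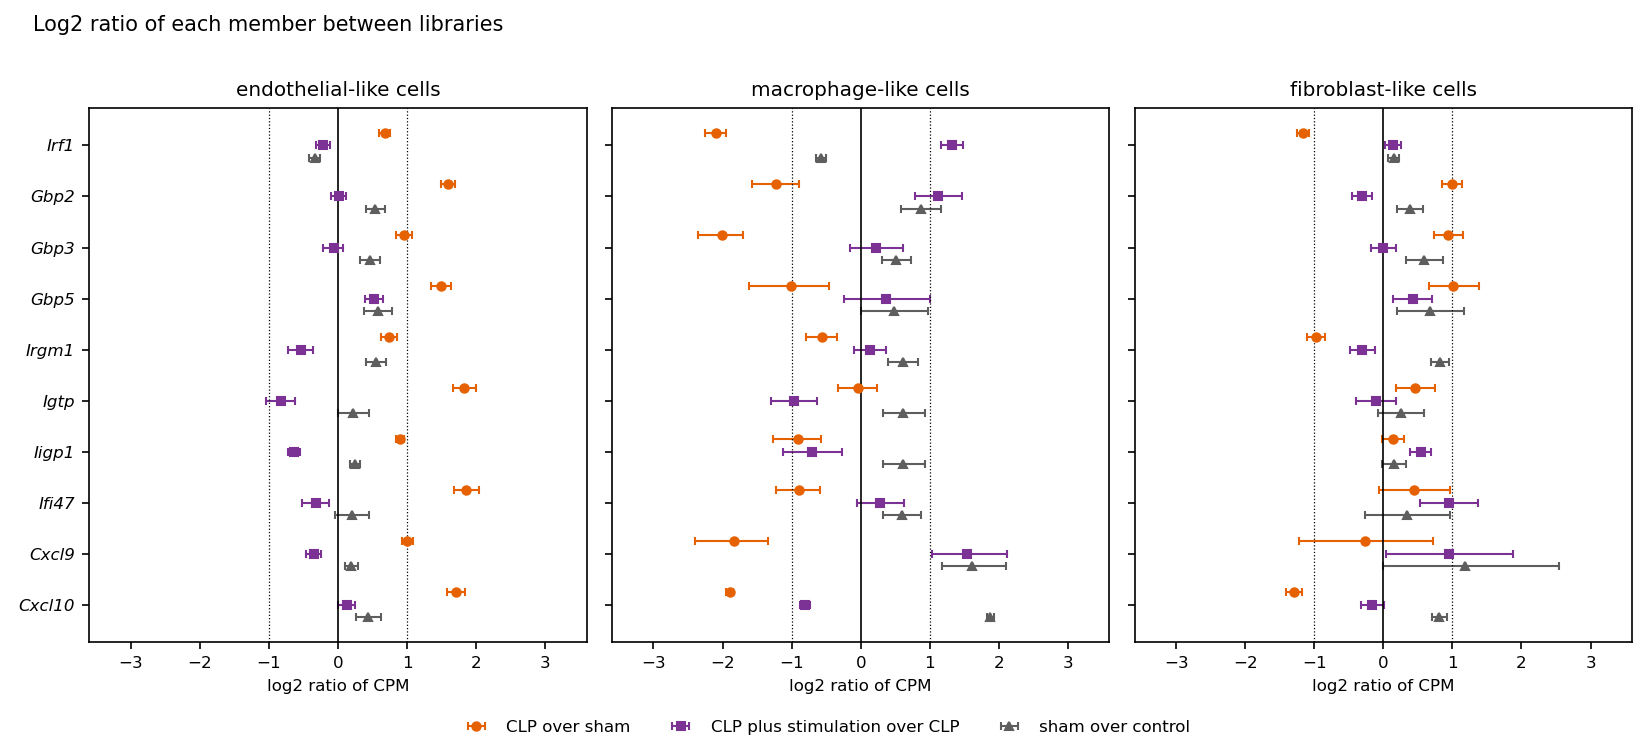
Log2 ratio of CPM of each member for CLP over sham, CLP plus stimulation over CLP and sham over control in 3 cell classes, with bars for exact 95% intervals of counting error and dotted lines at 1 and -1. CLP over sham lies right of 0 for all 10 members in endothelial-like cells and at or left of 0 in macrophage-like cells.

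In endothelial-like cells no member was at least 2-fold higher or lower in CLP plus stimulation than in CLP, where 8.72% and 19.3% of 12340 genes were, and the medians were -0.27 for the members and -0.16 for all genes. Macrophage-like cells had 3 members at least 2-fold higher in CLP plus stimulation than in CLP, namely Cxcl9 (1.54, 1.04 to 2.11), Irf1 and Gbp2 (1.11, 0.79 to 1.46), where 8.24% of 12268 genes were. None was at least 2-fold lower, where 9.42% were, although Igtp (-0.96, -1.30 to -0.64) and Cxcl10 (-0.81, -0.88 to -0.74) lay near. Endothelial markers were found in 50.8% of these macrophage-like cells in CLP plus stimulation (median 1 UMI) and 80.4% in CLP (median 2), and summed to 129 and 296 CPM, with none of the 8 at 0. Monocyte markers were found in 14.8% and 29.7% of the cells and summed to 42.3 and 117 CPM, with none of the 6 at 0. Their part in these ratios was not tested. With doublets kept the Cxcl9 ratio was 0.10, and with classes taken from clusters 2 members were at least 2-fold higher and 3 lower, among them Cxcl10. In fibroblast-like cells no member reached 2-fold, where 4.57% of 13077 genes were higher and 17.0% lower.

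Set against sham, CLP plus stimulation had 5 of 10 members at least 2-fold higher in endothelial-like cells, where 8.36% of 12100 genes were: Gbp5 (2.01), Cxcl10 (1.83), Gbp2 (1.60), Ifi47 (1.53) and Igtp (1.00). In macrophage-like cells none was at least 2-fold higher, where 7.67% of 12942 genes were, and 4 were at least 2-fold lower, where 22.4% were: Cxcl10 (-2.70), Gbp3 (-1.79), Iigp1 (-1.61) and Igtp (-1.01). In fibroblast-like cells Gbp5 (1.44) and Ifi47 (1.40) were at least 2-fold higher, where 6.97% of 13021 genes were, and Cxcl10 (-1.45), Irgm1 (-1.27) and Irf1 (-1.02) at least 2-fold lower, where 25.3% were. The comparisons share the sham and CLP libraries, so their values are not independent of each other.

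Sham and control differed little in endothelial-like cells, where no member was 2-fold apart, with a median of 0.34 against 0.06 for all genes and 1.21% of 12820 genes at least 2-fold higher. In macrophage-like cells Cxcl10 (1.88) and Cxcl9 (1.62, 1.17 to 2.10) were at least 2-fold higher in sham, where 1.65% of 12997 genes were, and Irf1 was lower (-0.57, -0.65 to -0.50). The Cxcl9 call rests on 1 cell: without the sham cell that held 73 of the 193 UMIs the log2 ratio was 0.93, short of 2-fold, and with the richest cell taken out of both libraries it was 1.25 (0.73 to 1.82). Fibroblast-like cells had Cxcl9 at least 2-fold higher, from 19 UMIs in sham and 9 in control, where 1.08% of 13446 genes were.

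The sham macrophages differed from control in Ifnb1, which encodes interferon beta, as well. Ifnb1 had 1.94 (1.38 to 2.66) CPM in macrophage-like cells of CLP plus stimulation, 9.65 (8.04 to 11.5) CPM in CLP, 92.3 (88.1 to 96.7) CPM in sham and 3.95 (3.01 to 5.08) CPM in control. A single CLP cell held 74 of the 127 Ifnb1 UMIs there, and with the richest cell of each library taken out the levels were 1.15, 4.03, 89.7 and 2.43 CPM in the same order. At least 1 Ifnb1 UMI was found in 363 of 3108 sham cells (11.7%, 10.6 to 12.9), against 8, 21 and 23 cells in CLP plus stimulation, CLP and control. Endothelial-like cells, which gave 0.214% of cells with an Ifnb1 UMI in sham, are the background beside that share, at median depths of 5772.5 UMIs for macrophage-like and 3349 UMIs for endothelial-like cells.

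In the sham library, macrophage-like cells with an Ifnb1 UMI held 2485 (2426 to 2545) CPM of Cxcl10 and those without held 797 (783 to 811) CPM. The cells with a UMI were slightly deeper, at a median of 6477 against 5668 UMIs. Sham cells without Ifnb1 still exceeded the whole macrophage-like class of control at 282 CPM. In the other libraries the cells with Ifnb1 also held more Cxcl10. The levels were 1679 (1407 to 1989) against 153 CPM in CLP plus stimulation and 1448 (1295 to 1614) against 258 CPM in CLP. In control they were 1029 (871 to 1209) against 275 CPM. These rest on only 8, 21 and 23 cells with Ifnb1. Those cells were also deeper, at medians of 9057 against 7448, 8082 against 7219 and 4634 against 3389 UMIs. The part of single cells in these levels was not tested.

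In all, 6 of 12 measured type I interferon genes were at least 2-fold higher in sham than in control macrophage-like cells, beside 1.65% of all genes, with a median of 0.98 against 0.03 for all genes. Ifit1, an inhibitor of viral translation, had 17.6 CPM in CLP plus stimulation, 24.2 CPM in CLP, 58.1 CPM in sham and 8.55 CPM in control, and Isg15, a ubiquitin-like modifier, had 87.6, 177, 313 and 104 CPM. Sham was highest for both genes.

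Clusters made without the members let some comparisons be repeated among cells of 1 cluster. Other genes of the GTPase families were not left out, and Gbp4 was among the genes leading cluster 22. The clusters need not be independent of the members. Cluster 5 held 2121 macrophage-like cells of CLP plus stimulation and 249 of CLP and was led by Ctla2b, Saa3 and Il1rn. In it Irf1 was at 63.5 CPM in CLP plus stimulation and 19.4 CPM in CLP, a log2 ratio of 1.70 (1.31 to 2.14), and Igtp at 6.35 and 17.2 CPM, a ratio of -1.44 (-1.95 to -0.90). Cxcl10 turned in direction, at 159 CPM in CLP plus stimulation and 96.3 CPM in CLP (0.72, 0.53 to 0.91). The other cluster that both libraries filled, cluster 2 with 61 and 51 cells, gave 228 and 99.8 CPM (1.19, 0.77 to 1.62). Most macrophage-like cells of CLP, 1196 of 1604, lay in cluster 1, where Cxcl10 was at 365 CPM. The lower Cxcl10 of CLP plus stimulation in the whole class was therefore not seen within either cluster that both libraries filled.

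**Figure D4:**
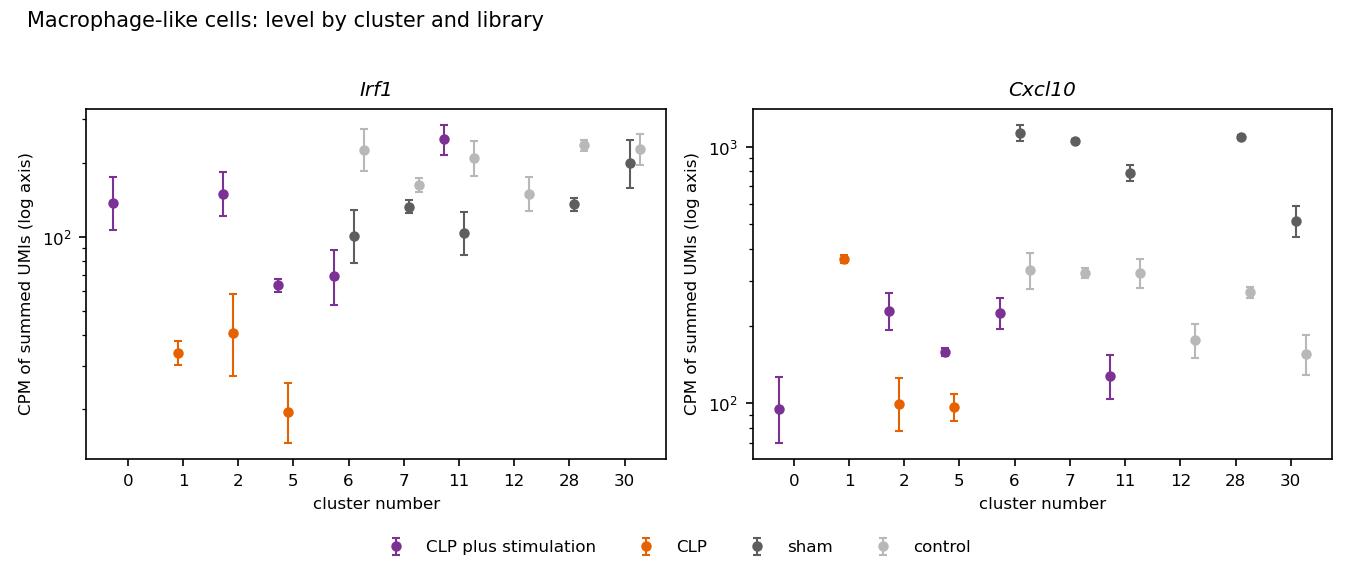
Level of Irf1 and Cxcl10 in CPM (log axis) in macrophage-like cells of each cluster and library with at least 50 cells, with bars for 95% counting intervals. Irf1 is lower in the CLP library than in CLP plus stimulation in the clusters both share, and Cxcl10 is highest in sham in each cluster that holds sham cells.

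Among macrophage-like cells of sham and control, Cxcl10 was higher in sham in clusters 7 (1050.5 against 322 CPM), 28 (1091 against 271 CPM) and 30 (514 against 155 CPM). Endothelial-like cells lay mostly in cluster 8 in CLP plus stimulation, cluster 22 in CLP and cluster 18 in sham and control. Cluster 16, of shallow cells, was the only endothelial-like cluster with at least 50 cells from every library. Within it, 5 of 10 members were at least 2-fold higher in CLP than in sham, where 5.06% of 4917 genes were, among them Igtp (2.18, 1.13 to 3.43) and Gbp2 (1.20, 0.55 to 1.87). Cxcl10 was not, at 43.4 CPM in CLP and 48.1 CPM in sham (-0.12, -1.29 to 0.92). The other clusters with at least 50 endothelial-like cells of both CLP and sham differed among themselves. In cluster 19, from 51 and 121 cells, 1 of 7 members with enough counts was at least 2-fold higher and 1 lower, with a median of 0.11, where 6.18% of 4529 genes were higher and 14.4% lower. In cluster 24, from 62 and 99 cells, 5 of 7 were higher, with a median of 1.38, where 5.77% of 4659 genes were. Cluster 31, with 100 and 74 such cells, was led by pericyte genes and was given no class name. Its mean score was 0.490 for endothelial and 0.342 for pericyte markers, at a median of 8402 UMIs. In it 6 of 10 members were higher, with a median of 1.15, where 5.22% of 9305 genes were.

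Cxcl9 was unevenly spread over the endothelial-like cells. In cluster 19, led by genes that include Gja5, Hey1 and Sema3g, it was at 20.2 CPM in CLP, 13.7 CPM in sham and 15.7 CPM in control. In cluster 24, led by genes that include Vwf, Npr3 and Plvap, it was at most 4.03 CPM in any of these libraries. In the remaining clusters with at least 50 endothelial-like cells of a library it lay between 79.2 and 392 CPM. Cluster 24 was at the same time highest in Cxcl10, at 451 CPM in CLP, 77.5 CPM in sham and 100.3 CPM in control. It held 62 of the 2292 endothelial-like cells of CLP.

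Per cell, with each cell thinned to 1000 UMIs, 22.6% of endothelial-like cells of CLP plus stimulation and 25.4% of those of CLP held UMIs of at least 3 members, against 7.47% in sham and 4.86% in control. This left out 129, 244, 174 and 595 shallower cells. In macrophage-like cells at least 1 member was found in 21.0% of cells in CLP plus stimulation, 22.7% in CLP, 51.7% in sham and 36.6% in control.

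Gbp2 alone was found in 23.8% and 23.0% of thinned endothelial-like cells of CLP plus stimulation and CLP, against 9.30% in sham and 6.29% in control. Before thinning these shares were 48.1%, 53.7%, 30.01% and 16.4%. In cardiomyocyte-like cells, taken as background, the thinned share was 1.11% of 90 cells in CLP and 5.17% of 58 cells in sham, both at the same 1000 UMIs. The exact interval of that sham share (1.08 to 14.4) includes the endothelial-like one, so the 2 classes were not separated by this share in sham.

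**Figure D5:**
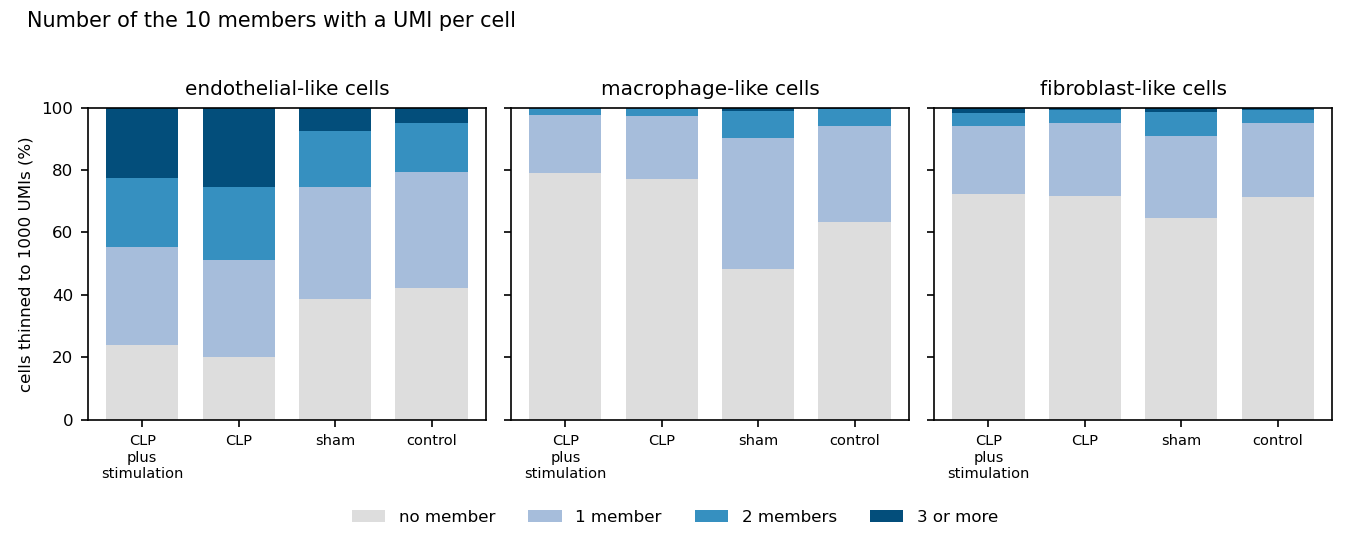
Share of cells with UMIs of no member, 1, 2 or at least 3 of the 10 members in CLP plus stimulation, CLP, sham and control, for 3 classes, after thinning each cell to 1000 UMIs. In endothelial-like cells at least 3 members were found in 22.6% and 25.4% of cells of the CLP libraries, against 7.47% in sham and 4.86% in control.

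Within endothelial-like cells of CLP, 367 thinned cells with a Cxcl9 UMI and 1681 without were compared as a description. Cxcl10 was found in 22.6% of cells with Cxcl9 and 5.77% of cells without. Gbp2 was found in 34.9% of cells with Cxcl9 and 20.5% of cells without. In CLP plus stimulation the shares were 18.7% and 9.95% for Cxcl10, and 35.2% and 21.3% for Gbp2. In sham Gbp2 was found in 9.26% of cells with Cxcl9 and 9.31% of cells without, alike for this gene. Cxcl10 was found there in 8.80% of cells with Cxcl9 and 3.78% of cells without. Cxcl10 was also concentrated in few cells: the 5% of endothelial-like cells richest in it held 69.0% of its UMIs in CLP plus stimulation, 72.6% in CLP, 77.4% in sham and 93.3% in control. For Irf1 they held 34.4%, 33.4%, 32.0% and 31.8%.

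The ligand gene Ifng was measured in T cell-like and NK cell-like cells, its known sources. These numbered 220 in CLP plus stimulation, 34 in CLP, 119 in sham and 125 in control, and held 211 (185 to 240.2) CPM, 725 (606 to 861) CPM, 730.1 (677 to 786) CPM and 362 (304 to 427) CPM. CLP and sham overlapped, and CLP plus stimulation was lowest. Ifng UMIs were found in 19.1% of these cells in CLP plus stimulation, 47.1% in CLP, 52.1% in sham and 25.6% in control, at median depths of 4119.5, 4262.5, 4535 and 2586 UMIs. Fibroblast-like cells, which are not a source of Ifng, gave 0.719%, 0.0510%, 0.356% and 0.0627%, at 8051, 8765, 7707.5 and 4513 UMIs.

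The order of Ifng across libraries was not that of the members in endothelial-like cells, where sham and control were lowest. In the larger cluster 11, led by Gzma, Trbc2 and Nkg7, Ifng was at 167 CPM in CLP plus stimulation, 252 CPM in CLP, 387 CPM in sham and 162 CPM in control. The intervals of CLP plus stimulation and control overlapped in that cluster. Of the 602 Ifng UMIs of CLP plus stimulation, 239 were in cells that met no gate.

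Of the receptor genes, Ifngr1 in endothelial-like cells was at 391 CPM in CLP plus stimulation, 403 CPM in CLP, 215 CPM in sham and 213 CPM in control, a log2 ratio of 0.90 (0.83 to 0.98) for CLP over sham. In macrophage-like cells it was at 123 CPM, 71.9 CPM, 154 CPM and 143 CPM, a ratio of -1.10 (-1.21 to -1.0). It thus differed in the same direction as the members in each class. In endothelial-like cells CLP plus stimulation over CLP was -1.29 (-1.52 to -1.08) for Irf2, and 2.39 (2.17 to 2.60) for Irf8 and 1.09 (0.89 to 1.29) for Jak2. The median of the 10 receptor and signal genes was 0.11, against -0.16 for all genes. In endothelial-like cells the T cell markers summed to 15.9 CPM in CLP plus stimulation and 1.41 CPM in CLP. The NK cell markers summed to 16.9 and 1.18 CPM and the neutrophil markers to 636 and 429 CPM. The dendritic markers went the other way, at 30.4 and 51.1 CPM. The part of these cells in the Irf2, Irf8 and Jak2 ratios was not tested.

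Further genes of both GTPase families were counted too. In endothelial-like cells all 3 further immunity related GTPases measured, Tgtp2 (1.85), Tgtp1 (1.80) and Irgm2 (1.5), and 3 of 5 further guanylate binding proteins, Gbp10 (3.06), Gbp6 (1.85) and Gbp4 (1.53), were at least 2-fold higher in CLP than in sham, beside 4.61% of all genes. For CLP plus stimulation over CLP, 2 of the 3 and 2 of the 5 were at least 2-fold lower, beside 19.3% of all genes, with medians of -1.11 and -0.87. The difference from the 7 members of these families was not tested. Gbp7 had 88.0 CPM in CLP plus stimulation, 354 CPM in CLP, 188 CPM in sham and 121 CPM in control, and Irgm2 had 20.8, 84.9, 30.03 and 19.5 CPM. For CLP plus stimulation over CLP the log2 ratio was -2.0 (-2.19 to -1.83) for Gbp7 and -2.02 (-2.42 to -1.66) for Irgm2, beside -1.11 for Tgtp2 and -1.76 for Gbp10. Irgm2 overlaps Igtp, so the split of reads between them is uncertain.

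Antigen processing genes included others that were higher in CLP. In endothelial-like cells 4 of 10 were at least 2-fold higher in CLP than in sham, beside 4.61% of all genes, with Tap1, a peptide transporter, at 1.55 and Psmb8, an immunoproteasome subunit, at 1.18. For CLP plus stimulation over CLP, Psmb9 gave -2.0 (-2.20 to -1.81), from 76.4 and 306 CPM, and 2 of 10 were at least 2-fold lower, beside 19.3% of all genes. In macrophage-like cells 5 of 10 were at least 2-fold lower in CLP than in sham, beside 18.3% of all genes, with Psmb9 at -1.37 and H2-D1, a class I molecule, at -1.28.

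Type I interferon genes were counted beside the members. In endothelial-like cells 9 of 13 were at least 2-fold higher in CLP than in sham, beside 4.61% of all genes, with a median of 1.23, close to the 1.25 of the members. For CLP plus stimulation over CLP, 7 of 13 were at least 2-fold lower with a median of -1.05, where 0 of 10 members were, with a median of -0.27, and 19.3% of all genes. Ifi44 had 26.1 CPM in CLP plus stimulation, 137 CPM in CLP, 69.0 CPM in sham and 45.5 CPM in control, and Cmpk2 had 18.9, 81.8, 58.7 and 59.2 CPM. The difference between the lists was not tested. In macrophage-like cells 4 of 13 type I genes were at least 2-fold lower in CLP plus stimulation than in CLP, beside 9.42% of all genes, with a median of -0.71, where the members had 0.25.

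Across the 28 sums of a class and a library with at least 100 cells, the genes most like the members were Ifit2, Tgtp2, Tgtp1, Xaf1, Nck1, Irgm2, Spata6, Gbp7, Stat2 and Acer2, in that order. Their Pearson correlation with the mean standardised profile of the members ran from 0.95 to 0.86, among 10549 genes. Against the mean of the other 9, the members themselves ranged from 0.91 for Igtp and Gbp5 to 0.55 for Irf1 and 0.38 for Cxcl10. The sums share libraries and differ in depth, so these are descriptions with no test.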

How the data were processed

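Single heart cells were sequenced with Chromium 3′ v3 chemistry, per the labels' protocols, 1 library per group. The authors deposited UMI counts, not normalized, written by Cell Ranger 5.0.0 per the file headers. The submitters' processing notes name STAR and mm10. The smallest barcode of each library held 500 UMIs.

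Cells with at least 200 genes and at most 20% mitochondrial UMIs were kept, and the 624, 611, 728 and 2039 cells with the highest simulated-doublet scores were removed in CLP plus stimulation, CLP, sham and control. Each cell was gated by the best of 14 marker scores (at least 0.2, and 0.1 above the next), a rule settled after the data were seen. Clusters (scanpy 1.11.5, Leiden, resolution 1, 30 components) left the members out. UMIs were summed per class and library and divided by the class total. Ratios had 0.5 counts added, with exact conditional binomial intervals, and levels exact Poisson intervals (scipy 1.17.1), at 95%. These cover counting error only, and with 1 library per group no test was made. A gene entered a comparison with at least 20 counts over both libraries. The code was tested on simulated data.

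Named genes were the 10 members, pathway genes past 2-fold in the class described (at most 4 per list), and the 10 genes most like the members. A few pathway genes given below 2-fold, and the split of cells by Ifnb1, were chosen after their values were seen. The members and lists were chosen with earlier results of these data known. The alternatives were TMM scaling (edgeR 4.0.16 in R 4.3.3), median-of-ratios scaling, no minimum count, 5 CPM added, at most 10% mitochondrial UMIs, no doublet removal, thinning to 1000 UMIs, classes from clusters, a stricter gate margin and, chosen after seeing the data, gate and cluster name in accord and, for each member, leaving out the counts of the cell richest in it. Sequences are from RefSeq, on GRCm38.p6. One gene is not reported here.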

Additional observations from a re-analysis of the deposited data

Results flagged for a closer look

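Between CLP and sham, 4 members went in opposite directions in different cell classes by at least 2-fold each way. The difference between classes was not tested in any of them, since each group had 1 library. Of all genes, 18.3% were at least 2-fold lower in macrophage-like cells and 4.61% at least 2-fold higher in endothelial-like cells. The share that did both was not counted. Gbp5 in macrophage-like cells and Cxcl9 in endothelial-like cells lay at the threshold. Fewer members were at least 2-fold lower in macrophage-like cells with 5 CPM added or with doublets kept. Gbp2 had a log2 ratio of CLP over sham of -1.22 in macrophage-like cells and 1.59 in endothelial-like cells. Gbp5 had -1.01 in macrophage-like cells, 1.49 in endothelial-like cells and 1.01 in fibroblast-like cells. Cxcl9 had -1.84 in macrophage-like cells and 1.00 in endothelial-like cells. Cxcl10 had -1.89 in macrophage-like cells, 1.70 in endothelial-like cells and -1.29 in fibroblast-like cells. In macrophage-like cells the CLP and control intervals overlapped for each of these 4 members, and the sham level stood above both levels. CLP, sham and control held 7.29, 17.1 and 9.34 CPM of Gbp2 there, and 2.66, 5.42 and 3.88 CPM of Gbp5. Cxcl9 had 2.81, 10.1 and 3.29 CPM in the same order. The macrophage values of Gbp5 and Cxcl9 rest on few UMIs, 35 in CLP and 103 in sham for Gbp5, and 37 in CLP and 193 in sham for Cxcl9. A single sham cell held 73 of those 193 UMIs, and without it the Cxcl9 ratio in macrophage-like cells was -1.15.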

How the results depend on the processing

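No member median changed sign under the alternatives tried in endothelial-like and macrophage-like cells. In endothelial-like cells CLP over sham (1.25) was 1.39 with TMM and 1.37 with median-of-ratios scaling, and CLP plus stimulation over sham (0.95) was 1.16 and 1.19. In fibroblast-like cells CLP plus stimulation over sham (0.68) was 0.95 and 0.98, and CLP plus stimulation over CLP (0.07) was 0.23 and 0.28 with the same scalings, 0.24 with thinned cells and -0.13 without doublet removal. In macrophage-like cells CLP over sham (-1.12) was -0.74 with 5 CPM added, and CLP plus stimulation over sham (-0.71) was -0.48 with TMM, -0.45 with median-of-ratios scaling and -1.02 with gate and cluster name in accord. The scalings moved the median of all genes too, from -0.24 to -0.03 with TMM for CLP over sham in macrophage-like cells, and the cause of the other shifts was not tested. Of 132 medians under an alternative, 118 stayed between the median lower and the median upper counting limit of the single members. That range is not the counting error of a median. Of 1311 single ratios, 1135 stayed within their own intervals. Both tallies include the setting with no minimum count, which could change none of its 12 medians and 120 single ratios. In endothelial-like cells the members at least 2-fold higher in CLP than in sham numbered 5 to 8, and in macrophage-like cells those at least 2-fold lower numbered 3 to 7. Taking the cell richest in each member out of each library left all 12 medians between those median limits. It brought Igtp in endothelial-like cells, CLP plus stimulation over sham, to 0.97. No paired analysis was possible because each group had 1 library. Depth limits Gbp5, Cxcl9 and Iigp1 in macrophage-like cells and Cxcl9 in fibroblast-like cells, whose sums were 9 to 23 UMIs.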

Other observations

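Class II genes, which interferon gamma also induces, did not follow the members in endothelial-like cells. All 4 that were measured there were at least 2-fold lower in CLP than in sham, where 6.52% of all genes were. Their median log2 ratio was -3.21. All 4 were at least 2-fold higher in CLP plus stimulation than in CLP, where 8.72% of all genes were, with a median of 4.38. Cd74, the invariant chain of class II molecules, had 268 CPM in CLP plus stimulation, 15.1 CPM in CLP, 151 CPM in sham and 101 CPM in control. In macrophage-like cells, its main source, it had 4314, 817, 9413 and 10342 CPM, with CLP lowest again. The macrophage markers in endothelial-like cells summed to 155, 137, 264 and 264 CPM in the same libraries, and their part in these values was not tested.

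Some effector targets were close to absent in endothelial-like cells of sham and control. Serpina3g, a protease inhibitor, had 20.2 CPM in CLP plus stimulation, 51.0 CPM in CLP, 1.75 CPM in sham and 0.926 CPM in control. Acod1, which makes itaconate in myeloid cells, had 34.1, 11.9, 0.617 and 0.370 CPM, and was 44.0, 14.8, 2.10 and 0.658 CPM in macrophage-like cells. The neutrophil markers moved in the same direction as Acod1 in both classes, at 636, 429, 99.1 and 28.0 CPM in endothelial-like cells, and their part was not tested.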
